A study of Homo sapiens with 4 samples.

Results

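The proteasome is the barrel-shaped protease that degrades ubiquitin-tagged proteins, and its genes were examined here in THP-1 cells. THP-1 is an established human cell line of monocytic character, derived from an acute leukaemia. The members were taken by name, as protein-coding genes whose symbol starts with PSMA, PSMB, PSMC, PSMD, PSME, PSMF or PSMG. Of 50 such genes in the annotation, 42 were found among the 27106 genes of the deposited table and 8 are not analysed here, namely PSMA8, PSMB3, PSMB8, PSMB9, PSMB11, PSMC4, PSME1 and PSME2. All 42 passed the minimum mean of 10 normalized reads, and the lowest count of any member in any library was 169 reads.

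Total RNA was sequenced from THP-1 cells given antisense oligonucleotides (ASO), which bind a chosen transcript by base pairing to lower it. The knockdown group (2 libraries) received an ASO whose target is SGOL1-AS1, a long noncoding RNA, and the non-targeting group (2 libraries) an ASO with no intended target. All 4 libraries are labelled day 5 and come from this 1 cell line. The table heads the knockdown columns with a code found in no label. They were assigned by elimination, and every direction below rests on that assignment. Nothing states that cultures were separate, so the p-values cover the spread among these libraries only, and that spread may be technical.

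Reads assigned to genes numbered 48558537 and 41435922 in the knockdown libraries and 50855150 and 51851314 in the non-targeting libraries. The target itself, SGO1-AS1 in current nomenclature, had 12 and 17 reads in the knockdown libraries against 24 and 21 in the non-targeting libraries, a difference within the error at this depth (limma, adjusted p = 0.555). Its level does not settle whether the labels are right. Monocytic genes were present, with LYZ at 36975 to 40116 normalized reads and all 18 monocytic markers in the table. Some of these markers were low. CD68 averaged 16.1 normalized reads in the knockdown and 19.5 in the non-targeting libraries. CD14 averaged 100.1 in the knockdown and 107.4 in the non-targeting libraries, and CD86 113.7 in the knockdown and 127.3 in the non-targeting libraries. Of 4 T cell markers 1 has a row, CD3G, with 1 to 4 reads per library, and of 4 erythroid and megakaryocyte markers 0 have one. The B-lineage factor PAX5 stood at 2786 and 3455 normalized reads in the knockdown libraries and at 4666 and 4624 in the non-targeting libraries.

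In the cell, alpha and beta subunits form the stacked rings of the 20S core, whose catalytic sites lie on the beta subunits PSMB5, PSMB6 and PSMB7. The 19S cap, built from a ring of ATPases and a set of non-ATPase subunits, recognises ubiquitin, unfolds the substrate and feeds it into the core. Interferon induces replacement subunits, PSMB8, PSMB9 and PSMB10, which take the places of PSMB5, PSMB6 and PSMB7 in newly made cores, and the activator pair PSME1 and PSME2. The resulting immunoproteasome is known for making peptides that suit MHC class I. Blood and immune cells also express some of these subunits without added interferon.

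No proteasome gene passed the threshold between the knockdown and the non-targeting libraries. Of 42 members 0 were called by limma at an adjusted p under 0.05, where 4.25% of the 19398 tested genes were called, 3.4% lower and 0.851% higher. By edgeR 0 of 42 were called, against 3.69% of all genes, and by DESeq2 0 of 42, against 2.3%. At an unadjusted p under 0.05, limma found 4 members, PSMB10, PSMB4, PSMG2 and PSMG4, where 17.2% of all tested genes were under that value. EdgeR found 2, PSMB10 and PSMG4, and DESeq2 found 1, PSMB10.

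The differences were small. Their errors rest on 2 libraries per group and on a spread that limma shares across genes of similar level. The median log2 fold change of the members, knockdown minus non-targeting, was -0.033, beside -0.0098 over all tested genes, and the members ranged from -0.22 (PSMB10) to 0.22 (PSMG4). The standard error of the difference was 0.048 to 0.13 on the log2 scale, with a median of 0.055. For 36 of the 42 members the 95% interval of the difference, taken gene by gene, lay within a 1.2-fold change in either direction. The 6 with wider or shifted intervals were PSMB10, PSMG4, PSMG2, PSMA2, PSMD9 and PSMC3IP. For all 42 the interval lay within a 1.5-fold change. These counts of intervals were not made over all tested genes. In bulk RNA, fewer cells of a kind and less RNA per cell cannot be told apart.

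**Figure D1:**
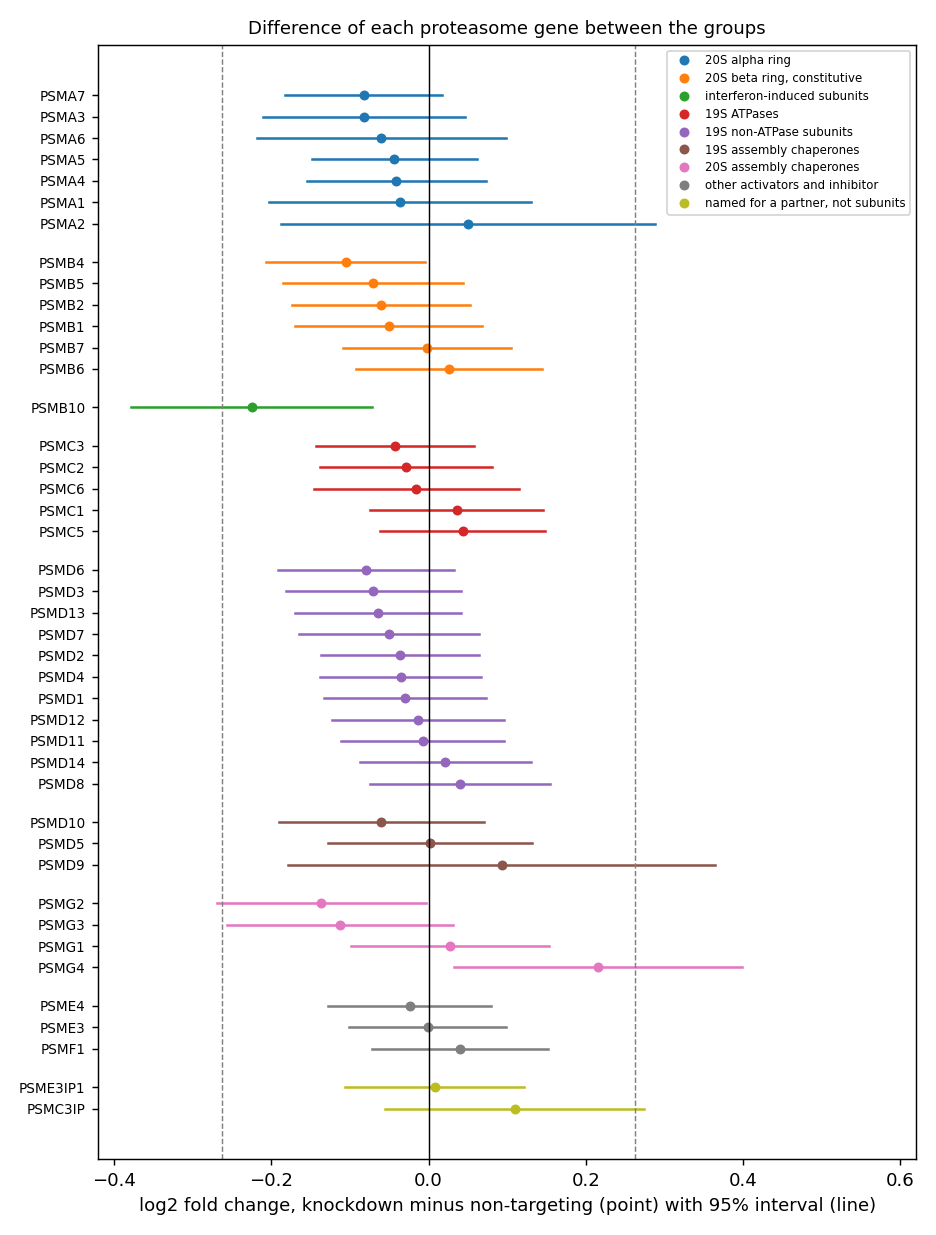
Log2 fold change (knockdown minus non-targeting) of each of the 42 members, grouped and coloured by role, as a point with its 95% interval from limma; dashed lines mark a 1.2-fold change in either direction. PSMB10 at -0.22 and PSMG4 at 0.22 stand furthest from 0, and 36 of the 42 intervals lie between the dashed lines.

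Both groups overlapped for most members. In 9 of 42 genes both knockdown values lay below both non-targeting values, and in 5 of 42 both lay above, while 25.1% of all tested genes had both below and 21.6% had both above. For 32 of the 42 genes the difference between the group means was smaller than the larger of the 2 differences between replicates of a group. That count was not made over all tested genes, so it shows nothing particular to the members. A negative log2 fold change was found for 29 members and a positive one for 13. With library totals made equal the counts were 13 negative and 29 positive, and after quantile normalization 16 negative and 26 positive. These scalings move all genes as well: the median of the members was 0.024 beside 0.047 over all genes with equal totals, and 0.024 beside 0.010 after quantile normalization. The members' median thus lay below that of all genes as deposited and with equal totals, and above it after quantile normalization.

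The alpha ring forms the outer gates of the core. None of its 7 measured subunits passed the threshold, with log2 fold changes from -0.08 to 0.05 and a median of -0.044. PSMA7, the highest member per kb, had 12955 and 12947 normalized reads in the knockdown libraries against 13934 and 13496 in the non-targeting libraries. The knockdown values were close to each other. Both lay below both non-targeting values, as in 25.1% of all tested genes. The log2 fold change was -0.08 ± 0.05 (SE; limma, adjusted p = 0.405). The other 6 alpha subunits overlapped between groups. For PSMA3 the libraries of a group differed more than the groups did, with 5042 and 5585 normalized reads in the knockdown and 5283 and 5970 in the non-targeting libraries.

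The beta ring holds the catalytic sites. Of its 6 measured constitutive subunits none passed the threshold, and their median log2 fold change was -0.056. PSMB5, which carries the chymotrypsin-like site, had 4693 and 4902 normalized reads in the knockdown and 4851 and 5229 in the non-targeting libraries. PSMB6, which carries the caspase-like site, had 3145 and 3091 in the knockdown and 2979 and 3147 in the non-targeting libraries. PSMB7, which carries the trypsin-like site, had 7967 and 8475 in the knockdown and 8085 and 8374 in the non-targeting libraries. The groups overlapped in all 3 catalytic subunits, and their log2 fold changes were -0.07 with a 95% interval of -0.18 to 0.04 (PSMB5), 0.03 with -0.09 to 0.14 (PSMB6) and -0.0019 with -0.11 to 0.11 (PSMB7). PSMB4, a structural subunit without a catalytic site, had 11234 and 11508 in the knockdown and 12096 and 12371 in the non-targeting libraries. Both knockdown values of PSMB4 were lower, by 0.11 ± 0.05 on the log2 scale (SE), and the difference missed the threshold over all genes (limma, adjusted p = 0.264). PSMB2 was separated in the same direction, with 4697 and 4642 in the knockdown and 4702 and 5044 in the non-targeting libraries. Over all tested genes 25.1% had both knockdown values below.

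Of the 5 interferon-induced subunits only PSMB10 has a row, so the contrast of induced with constitutive subunits rests on 1 gene. PSMB10, the replacement for PSMB7, lies on chromosome 16 from 67934502 to 67937087 on the minus strand (GRCh38, GENCODE 29). It had 1280 and 1171 normalized reads in the knockdown libraries against 1516 and 1351 in the non-targeting libraries. Both knockdown values were lower than both non-targeting values, and the gap between knockdown library 1 and non-targeting library 2 was narrower than the gap inside either group. The means were 1226 ± 77.1 in the knockdown and 1434 ± 117 in the non-targeting group (SD, n = 2 each), a log2 fold change of -0.22 ± 0.07 (SE) with a 95% interval of -0.38 to -0.07. It was the lowest of the 42 members and missed the threshold (limma, adjusted p = 0.093). The 39 constitutive members, which leave out PSMB10 and 2 genes named for a partner, had a median log2 fold change of -0.035 and ranged from -0.14 to 0.22. That difference between 1 induced gene and the constitutive ones was not tested.

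The PSMB10 value depended on single libraries. Without knockdown library 1 the gene was called lower (log2 fold change -0.29; limma, adjusted p = 0.0121), and without non-targeting library 1 the log2 fold change was -0.14 (limma, adjusted p = 0.693). Over all other alternatives the adjusted p ran from 0.054 with robust empirical Bayes to 0.476 with no mean-variance trend (limma).

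PSMB10 was also set against its constitutive counterpart within each library, a measure that a common scaling factor of a library does not touch. PSMB10 amounted to 16.1% and 13.8% of the PSMB7 level in the knockdown libraries and to 18.8% and 16.1% in the non-targeting libraries. These are shares of reads, not per length. The ratio was lowest in knockdown library 2 and highest in non-targeting library 1, and knockdown library 1 and non-targeting library 2 were nearly equal. The log2 ratio averaged -2.75 in the knockdown and -2.52 in the non-targeting libraries, a difference of -0.22 (exact permutation test over the 4 libraries, two-sided, p = 0.333, the smallest that 2 against 2 can give). It was the only 1 of the 5 planned pairs with rows for both genes.

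**Figure D2:**
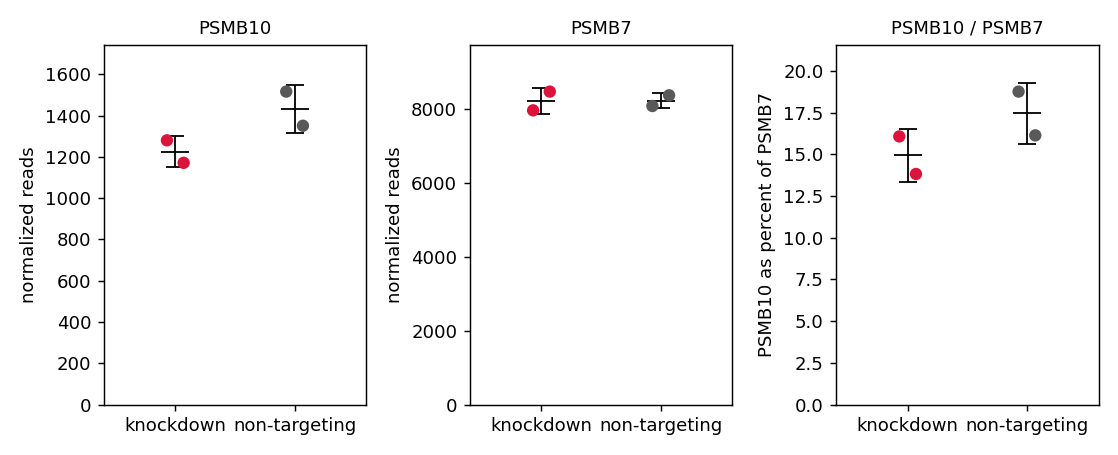
Normalized reads of PSMB10 and of PSMB7, and PSMB10 as a percent of PSMB7, in each library (points), with the group mean and SD (bars, n = 2); all axes start at 0. PSMB10 is at 1280 and 1171 in the knockdown and 1516 and 1351 in the non-targeting libraries, while PSMB7 overlaps between the groups.

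The promoter of PSMB10 is shown because it holds a match to the interferon-stimulated response element, the DNA pattern bound by the interferon factors ISGF3 and IRFs. The pattern searched was a pair of GAAA repeats with any 2 bases between them, or its reverse complement, a pair of TTTC repeats spaced the same way, in the 250 bases before the RefSeq start, with overlapping matches allowed. The sequence is RefSeq's, from GRCh38.p14, chr16:67936851-67937100 on the minus strand, read 5′ to 3′, with the match in capitals.
PSMB10: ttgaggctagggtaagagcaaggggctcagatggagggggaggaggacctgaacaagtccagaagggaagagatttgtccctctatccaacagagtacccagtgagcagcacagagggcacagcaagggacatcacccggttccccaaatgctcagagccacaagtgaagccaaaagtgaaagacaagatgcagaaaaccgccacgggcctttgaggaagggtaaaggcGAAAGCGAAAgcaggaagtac
The match lies 21 to 12 bases before the RefSeq start. GENCODE 29 begins the gene further upstream, at 67937087, so the match lies inside the gene's GENCODE span. A match describes letters and not binding, which was not measured here.

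Of the 36 members with a promoter window in the RefSeq table, 4 (11.1%) held this pattern, against 3.71% of 27305 genes with a window. They were PSMB10, PSMG4, PSMB4 and PSMA4, and their log2 fold changes were -0.22, 0.22, -0.11 and -0.04, with groups that overlapped in PSMA4. The lowest and the highest member of the whole set thus both carry the pattern, with the same letters in capitals. PSMG4 is shown for this reason, with chr6:3258697-3258946 on the plus strand and the match in capitals 33 to 24 bases before its start, followed by 60 bases around the match of PSMB4 (chr1:151399479-151399538, plus strand) and of PSMA4 (chr15:78540155-78540214, plus strand).
PSMG4: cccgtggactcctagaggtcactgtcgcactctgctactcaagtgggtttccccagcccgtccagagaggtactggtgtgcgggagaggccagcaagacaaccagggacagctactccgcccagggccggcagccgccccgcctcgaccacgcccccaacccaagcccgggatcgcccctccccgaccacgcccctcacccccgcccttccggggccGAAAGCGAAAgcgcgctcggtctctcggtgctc
PSMB4: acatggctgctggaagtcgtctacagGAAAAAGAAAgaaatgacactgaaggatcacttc
PSMA4: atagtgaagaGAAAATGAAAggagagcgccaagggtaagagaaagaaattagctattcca
The gamma-activated site, another interferon-responsive pattern, searched as TTCNNNGAA, which is its own reverse complement, was found in 4 of 36 members (11.1%) and 8.09% of all genes, and PSMB10 held none. The antioxidant response element core, searched as TGACNNNGC or GCNNNGTCA, is the pattern through which the factor NRF1 (gene NFE2L1) acts on proteasome genes. It was found in 9 of 36 members (25%) and in 13.2% of all genes. The CCAAT box, searched as CCAAT or ATTGG, was found in 18 of 36 members (50%) and 37% of all genes. These patterns were searched separately, and matches of different patterns may overlap.

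The ATPase ring of the 19S cap unfolds substrates. None of its 5 measured subunits passed the threshold, with log2 fold changes from -0.04 to 0.04 and a median of -0.016. PSMC3, the highest of them per kb, had 13903 and 14231 normalized reads in the knockdown and 14678 and 14302 in the non-targeting libraries, all knockdown values below. PSMC5 had 6867 and 6921 in the knockdown and 6795 and 6586 in the non-targeting libraries, all knockdown values above. These 2 ATPases thus lay in opposite directions, each by less than 0.05 on the log2 scale. The other 3 ATPases overlapped between groups. Over all tested genes 25.1% had both knockdown values below and 21.6% had both above.

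Among the 11 non-ATPase subunits, which include the scaffold PSMD2, the ubiquitin receptor PSMD4 and the deubiquitinase PSMD14, none passed the threshold. Their log2 fold changes ran from -0.08 to 0.04, with a median of -0.035. PSMD14, which removes ubiquitin chains as substrates enter, had 6906 and 7396 normalized reads in the knockdown and 6958 and 7127 in the non-targeting libraries. PSMD4 had 10621 and 11054 in the knockdown and 10927 and 11284 in the non-targeting libraries. PSMD2, the member with the most reads, had 15897 and 16522 in the knockdown and 16407 and 16833 in the non-targeting libraries. In all 3 the groups overlapped. PSMD6 and PSMD13 were the only 2 of the 11 in which they did not. Both knockdown values lay below in each, as in 25.1% of all tested genes. PSMD6 had 3656 and 3667 in the knockdown against 3891 and 3845 in the non-targeting libraries.

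The assembly chaperones build the rings and then leave. PSMG1 and PSMG2 act as a pair on the alpha ring, as do PSMG3 and PSMG4. None of the 4 passed the threshold. In 2 both knockdown values lay below both non-targeting values and in 1 above, beside 25.1% and 21.6% of all tested genes. PSMG4 had 605 and 606 normalized reads in the knockdown against 545 and 499 in the non-targeting libraries, the highest log2 fold change of any member at 0.22 ± 0.09 (SE; 95% interval 0.03 to 0.40; limma, adjusted p = 0.197). Its partner PSMG3 had 1132 and 1196 in the knockdown against 1252 and 1263 in the non-targeting libraries, with a log2 fold change of -0.11 (95% interval -0.26 to 0.03; limma, adjusted p = 0.434). The members of this pair therefore lay on opposite sides of 0, and neither difference passed the threshold. PSMG2 had 1762 and 1885 in the knockdown against 1948 and 2059 in the non-targeting libraries, with a log2 fold change of -0.14 (95% interval -0.27 to -0.0037; limma, adjusted p = 0.274). PSMG1 overlapped between the groups, with 2171 and 2234 in the knockdown and 2219 and 2104 in the non-targeting libraries.

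The chaperones of the 19S ATPase ring are PSMD5, PSMD9 and PSMD10, the last also called gankyrin. None passed the threshold. PSMD9, the lowest member per kb, had 196 and 193 normalized reads in the knockdown and 188 and 176 in the non-targeting libraries, with a log2 fold change of 0.09 and a wide 95% interval of -0.18 to 0.36 (limma, adjusted p = 0.783). PSMD5 had 1726 and 1789 in the knockdown and 1745 and 1766 in the non-targeting libraries. PSMD10 had 2051 and 2192 in the knockdown and 2140 and 2285 in the non-targeting libraries, and in both genes the groups overlapped.

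PSME3 and PSME4 are activators that are not part of the interferon-induced pair, and PSMF1 binds the core and inhibits it in vitro. PSME3 had 11240 and 11430 normalized reads in the knockdown and 11329 and 11357 in the non-targeting libraries, a log2 fold change of -0.0011 with a 95% interval of -0.10 to 0.10 (limma, adjusted p = 0.995). PSME4 had 7440 and 7455 in the knockdown and 7449 and 7698 in the non-targeting libraries. PSMF1 had 3848 and 3853 in the knockdown against 3772 and 3716 in the non-targeting libraries. These 3 genes differed little between the groups, and for PSMF1 alone the groups did not overlap. Both knockdown values of PSMF1 lay above, as in 21.6% of all tested genes.

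The naming rule also took 2 genes that are not proteasome subunits. PSMC3IP encodes a partner of meiotic recombinases and PSME3IP1 a protein that binds PSME3. PSMC3IP had 824 and 891 normalized reads in the knockdown against 820 and 769 in the non-targeting libraries, with both knockdown values above (log2 fold change 0.11; limma, adjusted p = 0.524). PSME3IP1 had 4583 and 4890 in the knockdown and 4816 and 4605 in the non-targeting libraries, and its groups overlapped.

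The 2 knockdown libraries differed from each other in most members. Relative to the non-targeting mean of each gene, the median member stood at -0.055 in knockdown library 1 and 0.0077 in knockdown library 2, on the log2 scale, and at -0.008 and 0.008 in non-targeting libraries 1 and 2. In 35 of the 42 members the value was lower in knockdown library 1 than in knockdown library 2. PSMB10 ran the other way, at -0.16 in knockdown library 1 and -0.29 in knockdown library 2. Together the 42 members took 0.506% and 0.518% of all normalized reads in the knockdown libraries and 0.50% and 0.508% in the non-targeting libraries.

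**Figure D3:**
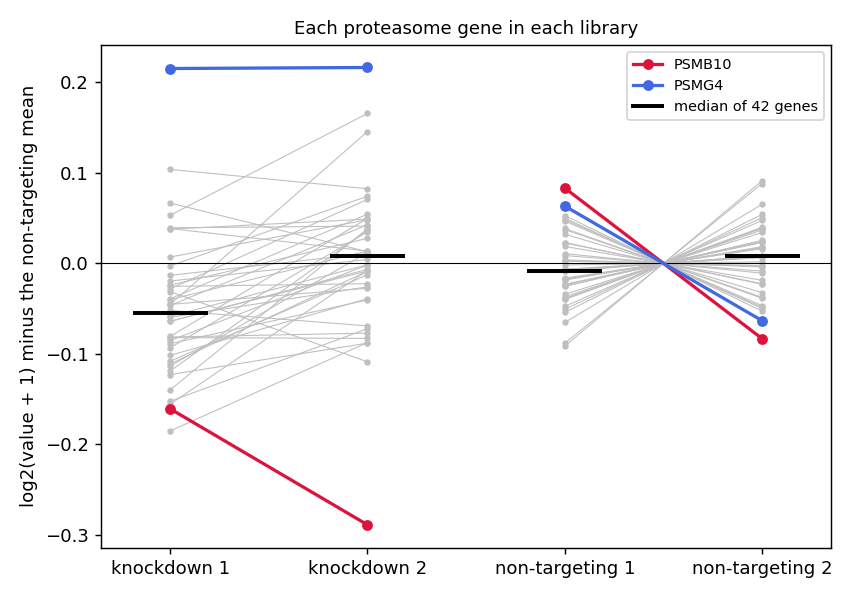
Log2(value + 1) of each member in each library minus that gene's non-targeting mean; grey lines are members, coloured lines PSMB10 and PSMG4, and black bars the median of the 42 genes. The non-targeting values mirror each other by construction; the median is at -0.055 in knockdown library 1 and 0.0077 in knockdown library 2.

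Levels of the members spanned a wide range, also within the alpha ring, whose subunits the particle holds in equal numbers. Per kb of the principal transcript (the main coding transcript by APPRIS in GENCODE 29), the non-targeting mean ran from 65.4 normalized reads for PSMD9 to 13770 for PSMA7. PSMA7 was followed by PSMB4 at 12691 and PSME3 at 11366. Over the whole exonic length PSMA7 was again the highest and PSMD9 the lowest, while PSME3 was in place 10 in place of 3.

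In the alpha ring, PSMA2 stood at 192 normalized reads per kb in the knockdown and 185 in the non-targeting libraries, PSMA1 at 509 in the knockdown and 523 in the non-targeting libraries, and PSMA6 at 876 in the knockdown and 912 in the non-targeting libraries. The other 4 alpha subunits lay between 2354 and 13003 per kb in the knockdown and between 2419 and 13770 in the non-targeting libraries. These 3 low alpha subunits, PSMD9 and PSMB10 are the 5 members whose principal transcript shares bases with exons of another annotated gene on its own strand in GENCODE 29. The shared part was 53.2% for PSMA1, 52.5% for PSMA2, 81% for PSMA6, 45.3% for PSMB10 and 43.8% for PSMD9, and 0% for the other 37. The median level of the 5 was 509 per kb in the knockdown and 523 in the non-targeting libraries, and that of the 37 was 2772 in the knockdown and 2830 in the non-targeting libraries. The range of the 5 in the non-targeting libraries, 65.4 to 1177, overlapped the lower end of the 37, which began at 510 with PSMD5.

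The overlapping genes differed in level, and the 1 that overlaps PSMA1, AC018523.2, is not analysed here. AC010132.3, which overlaps PSMA2, had 4.80 and 3.42 normalized reads in the knockdown and 2.88 and 2.82 in the non-targeting libraries. AL121594.1, which overlaps PSMA6, had 1.92 and 2.28 in the knockdown and 1.92 and 0.941 in the non-targeting libraries. AC040162.1, which overlaps PSMB10, had 148 and 114 in the knockdown and 129 and 139 in the non-targeting libraries. PSMD9 is overlapped by WDR66, with 68.1 and 42.2 in the knockdown and 46.1 and 61.2 in the non-targeting libraries, and by AC069503.2, with 10.5 and 9.12 in the knockdown and 4.80 and 2.82 in the non-targeting libraries. Those of PSMA2 and PSMA6 were near 0, while those of PSMB10 and PSMD9 held more reads. The sources used here do not say how the authors counted reads that fall in 2 genes, so the part of this overlap in the low levels, that of PSMB10 included, was not tested. Over all coding genes tested, the median level in the non-targeting libraries was 41.7 per kb for the 367 genes with more than 50% of the principal transcript shared and 421 for the 11706 with none. Overlap on the opposite strand covered at least 50% of the principal transcript in 3 members, whose levels differed. PSMC1, shared to 82.1%, stood at 1322 per kb in the knockdown and 1290 in the non-targeting libraries. PSMC3IP, shared to 54.4%, stood at 605 per kb in the knockdown and 561 in the non-targeting libraries, close to PSMA1. PSMD7, shared to 50.4%, stood at 3038 per kb in the knockdown and 3144 in the non-targeting libraries.

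**Figure D4:**
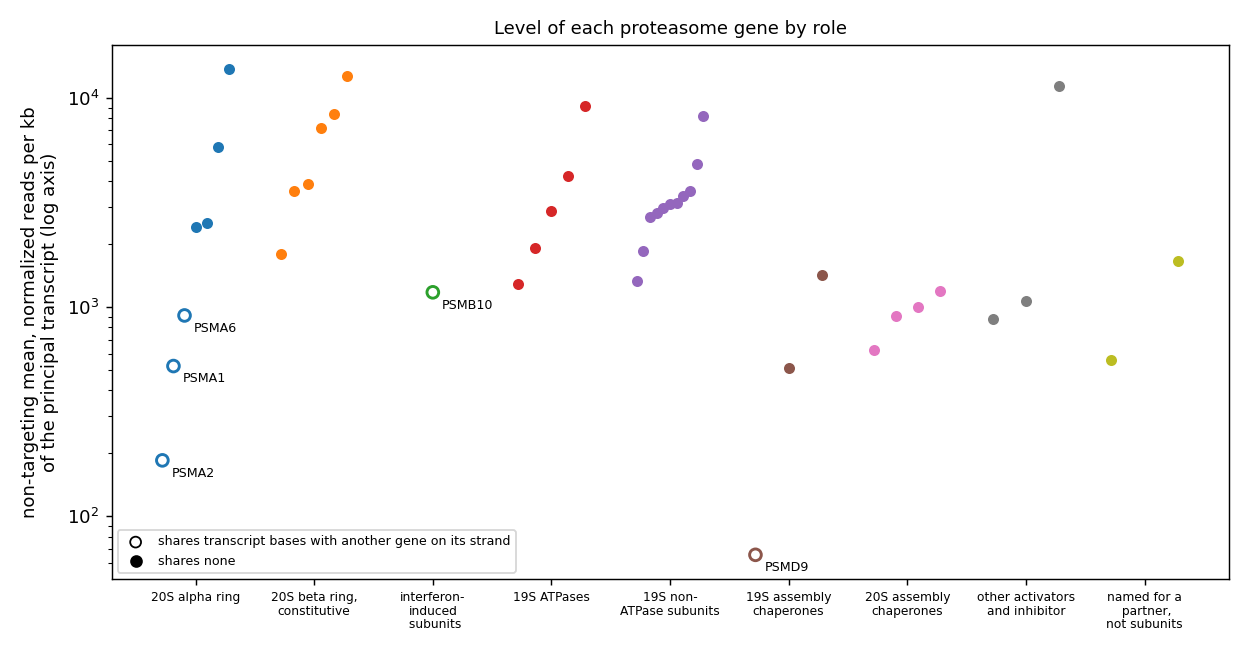
Mean of the non-targeting libraries in normalized reads per kb of the principal transcript (log axis) for each member, by role; open circles share transcript bases with another gene on the same strand. The open circles PSMD9, PSMA2, PSMA1, PSMA6 and PSMB10 lie at 65.4, 185, 523, 912 and 1177.

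Some members also have genes annotated as their processed pseudogenes. Pseudogenes of 7 members have rows, and their summed reads came to at most 4.02% of the member's (PSMA6). For the other 6 the share was 1.35% (PSMC1) or less. These shares count only reads assigned to the pseudogene rows. Reads of these members could have been split with the pseudogenes beyond that, which was not tested.

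Other genes around the proteasome also differed little. Of 17 further subunits, maturation factors and ubiquitin shuttle proteins 0 passed the threshold, with a median log2 fold change of -0.014 (limma). By edgeR and DESeq2 0 were called too, and each of the 3 tools found 2 at an unadjusted p under 0.05. Over all tested genes limma called 4.25%, edgeR 3.69% and DESeq2 2.3%, and 17.2% had an unadjusted p under 0.05 by limma. SEM1, a small 19S subunit, had 4430 and 4990 normalized reads in the knockdown against 4261 and 4150 in the non-targeting libraries (log2 fold change 0.16; limma, adjusted p = 0.138), and it was called higher without knockdown library 1 (0.25; limma, adjusted p = 0.00416). Without knockdown library 2 the SEM1 value was 0.08 (limma, adjusted p = 0.605). The ubiquitin receptor ADRM1 had 5792 and 5676 in the knockdown against 6394 and 6193 in the non-targeting libraries (-0.13; limma, adjusted p = 0.161).

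Of 9 genes of the NRF1 pathway, which raises proteasome genes when the proteasome is inhibited, 0 passed the threshold, with a median log2 fold change of -0.062 (limma). By edgeR and DESeq2 0 were called too, and 1 gene by limma, 1 by edgeR and 0 by DESeq2 had an unadjusted p under 0.05. Of all tested genes limma called 4.25%, and 17.2% had an unadjusted p under 0.05 by limma. NFE2L1, the factor itself, had 7696 and 7941 normalized reads in the knockdown against 8367 and 8252 in the non-targeting libraries (-0.09; limma, adjusted p = 0.385). The protease DDI2, which activates it, had 3360 and 3348 in the knockdown against 3005 and 3154 in the non-targeting libraries (0.12; limma, adjusted p = 0.257). VCP, the segregase that extracts it from the membrane, was at -0.08 (limma, adjusted p = 0.403).

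Among 22 tested genes of interferon control and peptide presentation 3 fell and 0 rose (limma), with a median log2 fold change of -0.15. Over all tested genes limma called 3.4% lower and 0.851% higher. By edgeR 3 of the 22 were called and by DESeq2 2, against 3.69% and 2.3% of all genes. An unadjusted p under 0.05 was found for 10 by limma, 10 by edgeR and 8 by DESeq2, beside 17.2% of all genes by limma. STAT2, a factor of interferon signalling, had 6427 and 7641 normalized reads in the knockdown against 8558 and 8972 in the non-targeting libraries and fell by 0.32 on the log2 scale (limma, adjusted p = 0.00325). Without knockdown library 1 its log2 fold change was -0.20 (limma, adjusted p = 0.0195), and without knockdown library 2 it was -0.45. IRF2, a factor that binds the interferon-stimulated response element, had 1457 and 1569 in the knockdown against 1755 and 1823 in the non-targeting libraries and fell by 0.24 (limma, adjusted p = 0.0354). The log2 fold change of PSMB10, -0.22, was close in size to that of IRF2, at a lower read count and without a call. The IRF2 call ended without knockdown library 1 (limma, adjusted p = 0.142), without either non-targeting library (0.126 and 0.253), after quantile normalization (0.121), with library totals made equal (0.129) and by DESeq2 (adjusted p = 0.115).

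Of 14 genes that encode or activate ubiquitin 2 fell and 0 rose (limma), with a median log2 fold change of -0.064. By edgeR and DESeq2 2 were called too, and limma called 3.4% of all tested genes lower. An unadjusted p under 0.05 was found for 3 by limma, 3 by edgeR and 2 by DESeq2, beside 17.2% of all genes by limma. UBE2L6, the conjugating enzyme of the ubiquitin-like protein ISG15, had 6668 and 7690 normalized reads in the knockdown against 9066 and 9225 in the non-targeting libraries and fell by 0.35 on the log2 scale (limma, adjusted p = 0.000648). UBE2R2 was at -0.12 (limma, adjusted p = 0.201).

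Markers of cell type moved beside these genes. Of 18 monocytic markers 4 fell and 0 rose (limma), with a median log2 fold change of -0.13. Those that fell were CD4 by 0.35, FCGR1A by 0.37, ITGB2 by 0.20 and TYROBP by 0.24 on the log2 scale (limma, adjusted p from 0.000193 to 0.026). By edgeR 4 of the 18 were called and by DESeq2 3, while limma called 3.4% of all tested genes lower. An unadjusted p under 0.05 was found for 8 by limma, 7 by edgeR and 6 by DESeq2, beside 17.2% of all genes by limma. The log2 fold change was positive in 3 of the 18, LYZ at 0.10 with both knockdown values higher (limma, adjusted p = 0.261), CD33 at 0.05 and CD36 at 0.04, which were chosen after their values were seen. The ITGB2 call ended without either non-targeting library (limma, adjusted p = 0.263 and 0.146) and under all 3 other scalings (0.0507 to 0.0844). The TYROBP call ended without non-targeting library 1 (limma, adjusted p = 0.478), after quantile normalization (0.101), with equal totals (0.125) and by DESeq2 (adjusted p = 0.0718). The 18 monocytic markers summed to 139818 and 135668 normalized reads in the knockdown and 149043 and 142840 in the non-targeting libraries. Of 4 B cell markers 3 have rows, of which PAX5 fell by 0.58 (limma, adjusted p = 2.45e-05), while CD79A was at 0.17 (limma, adjusted p = 0.755). The 3 summed to 2905 and 3562 normalized reads in the knockdown and 4780 and 4733 in the non-targeting libraries. Of 4 epithelial and fibroblast markers 2 have rows, with COL1A1 at 0.06 (limma, adjusted p = 0.876) and KRT18 at 6 to 8 reads per library. The part of these shifts in the PSMB10 value was not tested.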

How the data were processed

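The authors deposited 1 table of signal, in which each gene's reads were divided by a size factor of the library, as the values themselves show. STAR 2.5.1b, DESeq2 (no version) and GRCh38 are named without role, per the submitters' processing notes; the annotation, counter and strand setting were not given in the sources used here. Whole reads were recovered within 0.000156 of a read. Every gene has at least 2 reads in knockdown library 1, so genes under that are not analysed here. Symbols matched 26579 identifiers and GENCODE 29 matched 26077. Knockdown libraries are numbered in column order.

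The test was limma 3.58.1 in R 4.3.3 on log2(value + 1), using trended empirical Bayes, for the 19398 genes whose mean reached 10. P-values were adjusted by Benjamini-Hochberg over these genes and called under 0.05. On this scale the change of low genes is understated. Alternatives were edgeR 4.0.16 with its quasi-likelihood test, DESeq2 1.42.0 (both run on whole reads), other filters, pseudocounts and scalings, and leaving out each library. The fits were checked on simulated counts. Members, lists and tests were chosen with earlier results of these data known. Some genes of the other lists are counted but not reported here. By rule, values are given for the interferon-induced subunits and their counterparts, the 3 lowest and 3 highest fold changes, the highest and lowest member per kb, members called, and in each other list the called genes and the 3 of smallest p. Members with an unadjusted p under 0.05 were added after their values were seen, as were the other members given as levels by library.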

Additional observations from a re-analysis of the deposited data

How the results depend on the processing

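No member was called under 0.05 in any of the filters, pseudocounts, scalings or tools tried. At a threshold of 0.1, 1 member was called, PSMB10, and with each library left out in turn the count was 0 to 1, again PSMB10, without knockdown library 1. A group of 1 library then borrows its spread from the other. The median log2 fold change of the constitutive members was 0.024 after quantile normalization and 0.022 with library totals made equal, against -0.035 as reported, and -0.058 to 0.0043 with each library left out. Equal totals multiply all values of a library by the same factor, while quantile normalization changes each value by its rank. The values of PSMB7 and PSME3, nearly 0 as reported, changed sign with the same median in every library (0.015 and 0.016), after quantile normalization (0.057 and 0.052), with equal totals (0.055 and 0.056), by edgeR (0.0078 and 0.0084) and by DESeq2 (0.0070 and 0.0077). With each library left out they ran from -0.046 to 0.043 and from -0.013 to 0.011, and PSMB6 from -0.014 to 0.066. The log2 ratio of PSMB10 to PSMB7 differed by -0.33 to -0.11 with each library left out. Over all genes 825 were called, against 476 after quantile normalization, 528 with equal totals, 447 by DESeq2, 0 with no trend (3336 at an unadjusted p under 0.05 with the trend), 1293 at 0.1 and 421 to 1220 with each library left out. With no trend the calls of the genes named outside the proteasome ended. No paired analysis was possible because the knockdown columns carry the numbers 2 and 3 and the non-targeting columns 1 and 2, so the groups share fewer than 2 numbers.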

Other observations

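PSME2, the interferon-induced activator subunit, is not analysed here, but 4 of its processed pseudogenes have rows and were looked at after their values were seen. PSME2P1 had 236 and 245 normalized reads in the knockdown libraries against 327 and 292 in the non-targeting libraries. Both knockdown values were lower, with a log2 fold change of -0.36 ± 0.12 (SE; 95% interval -0.60 to -0.12; limma, adjusted p = 0.0834). PSME2P2 had 91.1 and 71.9 in the knockdown and 104 and 93.1 in the non-targeting libraries (-0.28; limma, adjusted p = 0.481), and PSME2P3 had 35.5 and 59.3 in the knockdown and 42.3 and 43.3 in the non-targeting libraries (0.10; limma, adjusted p = 0.898). Over the alternatives the adjusted p of PSME2P1 ran from 0.0657 to 0.579. It was called at a threshold of 0.1 and by none of the alternatives at 0.05. Whether these reads came from the pseudogene or from PSME2 was not tested.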
